A study of Homo sapiens with 16 samples.

Results

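Histone genes were followed in the human neuroblastoma line SK-N-AS, cell by cell, and the replication-dependent genes of the histone clusters were set against the histone variant genes. Members were all rows of the count table that carry a name starting with HIST1H to HIST4H, H2AF, H3F3 or H1F, which gave 82 of 27043 rows. Of these, 65 were classed by name as clustered and 14 as variant genes, and 3 rows with antisense or pseudogene names were set apart. HIST2H2BC, with 4 counts, stayed in the clustered class by its name, although GENCODE release 29 lists it as a pseudogene. The cells were untreated and grown in serum-supplemented medium, and they were sorted singly into plate wells for MARS-seq, a method that counts the 3' ends of polyadenylated RNA. The table holds 603 cells with 1537576 counts. It names no sample for any cell, so the 16 labelled samples could not be separated and all values describe 1 pool of cells without replicates.

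Histones package DNA into nucleosomes. The clustered genes (HIST1 to HIST4) supply the bulk core and linker histones while DNA is copied, and most of their mRNAs end in a conserved stem-loop in place of a poly(A) tail. The stem-loop is bound by SLBP, and these mRNAs are degraded when replication stops. Variant genes mostly lie outside the clusters, are usually polyadenylated, and supply histones with special roles in and out of S phase. A method that primes on poly(A) sees clustered genes through whatever poly(A) or A-rich sequence their transcripts carry, so the levels of the 2 classes cannot be read as amounts of mRNA.

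Totals per cell ran from 1000 to 42404 counts with a median of 2106. The columns fall into 2 sets, of 316 and 287 cells, that share 239 of 364 barcodes. They are called barcode set 1 and barcode set 2 here, they are not groups of the study, and values are given within each where a result leans on one of them. Values per cell used the 560 cells with at least 1100 counts, each thinned at random to 1100. Of 8 mesenchymal and 13 sympathetic neuroblast markers, 7 and 8 had at least 50 counts. Of 14 markers of other cell types, 11 were at 0 and the highest, PTPRC, stood at 18.9 CPM (counts per 1000000). Intervals in parentheses are exact 95% intervals. They cover counting error only and leave out any variation between cells, wells or cultures.

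The clustered genes together held 5623 counts, or 3657 CPM (3562 to 3754), and the variant genes held 6479 counts, or 4214 CPM (4112 to 4318). The 2 classes were thus of similar summed level, with a log2 ratio of clustered over variant of -0.20 (-0.26 to -0.15). Members took 0.787% of all counts. The sums rest on few genes. HIST1H4C supplied 78.1% of the clustered counts, and without it the clustered class stood at 801 CPM. H2AFZ supplied 44.3% of the variant counts and H3F3B another 29.3%. Without H2AFZ the order of the classes turned, with a log2 ratio of 0.64.

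Among the clustered genes, 21 were at 0, 33 had 1 to 19 counts, 5 had 20 to 49 and 6 had at least 50. Among the variants, 4 were at 0, 1 had 1 to 19, 2 had 20 to 49 and 7 had at least 50. Over all rows of the table, 17.2% had at least 50 counts. A count of 0 allows a level of up to 1.95 CPM. The 3 rows set apart held 4 counts in all, all of them in the antisense row H1FX-AS1.

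HIST1H4C, which encodes the core histone H4, was the most abundant member at 2856 CPM (2772 to 2942). The linker histone gene HIST1H1C followed within its class at 207 CPM (185 to 231). HIST1H2BK, an H2B gene, stood at 161 CPM (142 to 183). The remaining clustered genes with at least 50 counts were the linker histone genes HIST1H1E at 113 CPM and HIST1H1B at 76.1 CPM, and the H2A gene HIST2H2AC at 48.8 CPM. The clustered class thus had 1 gene above 1000 CPM and none other above 207 CPM.

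By histone type, the 14 clustered H4 genes held 4404 counts, of which HIST1H4C alone held 4391. The clustered H1 genes held 613 counts, the H2B genes 343, the H2A genes 201 and the H3 genes 62. Linker histone genes thus led the clustered counts outside H4, and H3 genes were the lowest type. The HIST1 cluster held 5525 of the 5623 clustered counts. The HIST2 cluster held 85, the HIST3 cluster 13 and the HIST4 gene 0. Clustered genes with 20 to 49 counts were HIST1H2BD (43), HIST1H3C (40), HIST1H2AJ (39), HIST1H2AM (24) and HIST1H2BC (21). Clustered genes of 1 type have near-identical coding sequences, so reads could have been split between them, and 1 row joins HIST1H3F, HIST1H3E and HIST1H3D.

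Among the variants, H2AFZ stood highest at 1865 CPM (1798 to 1935). It encodes H2A.Z, an H2A variant placed at promoters. H3F3B, which encodes an H3 deposited independently of replication, stood at 1235 CPM (1180 to 1292). H2AFV, a second H2A.Z gene, stood at 384 CPM (354 to 417). H2AFX, whose protein is phosphorylated at DNA breaks, stood at 224 CPM (201 to 249), the linker variant gene H1FX at 207 CPM and the macroH2A gene H2AFY at 190 CPM in a row that also names AX747819. H3F3C was lowest of the 7 at 37.1 CPM (28.1 to 48.0), and H2AFJ (49 counts) and H1F0 (43 counts) were below the limit of 50 counts.

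**Figure D1:**
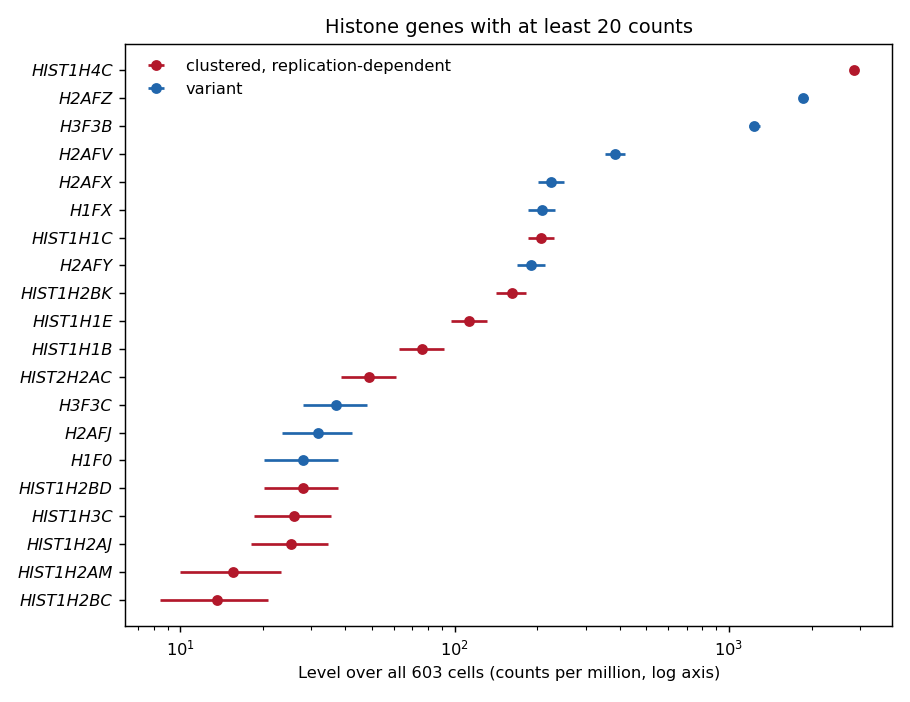
Level of each histone gene with at least 20 counts, in CPM over all 603 cells on a log axis, with exact 95% Poisson intervals as bars. Clustered genes are red and variants blue: HIST1H4C at 2856 CPM is followed by H2AFZ and H3F3B, and the next clustered gene, HIST1H1C, lies at 207 CPM.

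Sequences of a few members, chosen after their values were seen, show how promoters and transcript ends of the 2 classes are built. Promoters were taken from RefSeq (GRCh38.p14, 250 bases before to 50 after the start), and 54 clustered and 12 variant genes were matched. HIST1H4C was not matched. Capitals mark matches on either strand to the CCAAT box, to the core TATAA of the TATA box, the octamer ATTTGCAT, the H1 box AAACACA, the H4 site element GGTCCG, the E2F element TTTCGCGC and the CHR element TTTGAA. Adjacent or overlapping matches run together, and TATAA can overlap its own reverse TTATA. Shown are the clustered linker gene HIST1H1E (chr6:26156079-26156378, plus strand) and the variants H2AFZ (chr4:99950226-99950525, minus strand) and H2AFX (chr11:119095416-119095715, minus strand).
HIST1H1E: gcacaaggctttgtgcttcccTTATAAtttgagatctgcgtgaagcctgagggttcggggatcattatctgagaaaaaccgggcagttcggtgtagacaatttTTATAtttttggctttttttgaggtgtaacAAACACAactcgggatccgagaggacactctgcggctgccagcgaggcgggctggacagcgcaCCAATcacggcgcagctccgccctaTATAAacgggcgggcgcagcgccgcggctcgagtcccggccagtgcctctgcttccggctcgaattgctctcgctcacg
H2AFZ: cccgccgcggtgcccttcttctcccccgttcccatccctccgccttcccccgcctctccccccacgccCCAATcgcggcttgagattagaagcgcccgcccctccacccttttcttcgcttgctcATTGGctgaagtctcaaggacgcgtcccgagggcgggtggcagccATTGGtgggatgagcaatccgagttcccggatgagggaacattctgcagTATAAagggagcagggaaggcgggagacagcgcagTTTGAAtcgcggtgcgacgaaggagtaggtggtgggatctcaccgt
H2AFX: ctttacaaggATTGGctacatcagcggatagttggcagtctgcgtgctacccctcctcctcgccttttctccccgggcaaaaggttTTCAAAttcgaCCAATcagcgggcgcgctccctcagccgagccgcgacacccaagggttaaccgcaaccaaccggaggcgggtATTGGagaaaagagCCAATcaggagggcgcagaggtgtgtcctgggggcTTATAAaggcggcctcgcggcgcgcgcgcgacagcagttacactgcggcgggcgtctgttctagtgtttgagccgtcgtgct

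In these windows a TATAA match on the gene's strand began at position -29 from the start in HIST1H1E and at -31 in both H2AFZ and H2AFX. HIST1H1E also has an H1 box at -117 and a CCAAT match at -54. TATAA matched 50 of 54 clustered and 4 of 12 variant promoters, against 20.4% of all 35116 promoters of this length. CCAAT matched 45 clustered and 9 variant promoters (34.6% of all), and the octamer 20 and 1 (1.77% of all). The H1 box matched 8 and 1 (5.64% of all), GGTCCG 14 and 3 (11.3% of all), the E2F element 11 and 0 (0.515% of all) and the CHR element 21 and 2 (15.2% of all). Both variants printed above are the 2 with a CHR match. Some clustered windows overlap, as those of HIST1H2AG and HIST1H2BJ do, so the same bases can count for more than 1 promoter. A match is only a match of letters in the window.

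Transcript ends were read from GENCODE release 29 models, as DNA letters. Capitals mark the stem-loop in HIST1H2BD-202 and H2AFX-202, runs of at least 5 A in the last 30 bases of HIST1H4C-201, and the polyadenylation signal in the last 30 bases of H2AFZ-201.
HIST1H2BD stem-loop: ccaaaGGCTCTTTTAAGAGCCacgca
H2AFX stem-loop: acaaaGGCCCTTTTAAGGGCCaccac
HIST1H4C end: tgagaacttcAAAAAAcAAAAAcAAAAAAA
H2AFZ end: ggataagttcAATAAAggtcatatcccaaa

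A stem of 6 paired bases that begins with GG, closing a loop of 4 bases that begins with TTT, was found in coding models of 26 of 64 clustered genes (all but HIST2H2BC have one) and in 1 of 14 variants, H2AFX. It was found in 74 of 83129 coding models (0.0890%). It was not found in the models of HIST1H4C, HIST1H1C, HIST1H2BK, HIST1H1E, HIST1H1B or HIST2H2AC, the clustered genes with at least 50 counts. In H2AFX-202 the model runs on for 1044 bases after the stem-loop, and in HIST1H2BD-202 for 39 bases, which also hold AATAAA. The signal AATAAA lies in the last 50 bases of coding models of 15 of 64 clustered and 8 of 14 variant genes. Its share over all coding models was not computed. The median length of the longest clustered models was 484.5 bases, and many hold little beyond coding sequence, so the lack of a match in a model says only that these letters are not in it. The HIST1H4C model ends in an A-rich stretch with 20 A in its last 26 bases. An A-rich window of at least 15 A in 20 bases lies in 19.8% of all coding models, in 4 of 64 clustered genes (6.25%) and in 4 of 14 variant genes (28.6%). Its part in the level of HIST1H4C was not tested.

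HIST1H4C had a count in 80.3% of the 603 cells (76.9 to 83.4), fewer than H2AFZ with 91.2% (88.7 to 93.3) and H3F3B with 88.2% (85.4 to 90.7), although its level was higher. If the counts of a gene fell on cells in proportion to their depth alone (a Poisson distribution), HIST1H4C would be seen in 98.9% of cells, H2AFZ in 96.0% and H3F3B in 89.9%. HIST1H4C was thus missing from more cells than its level gives, while H3F3B lay within its interval of the Poisson value. HIST1H1C had a count in 28.5% of cells against a Poisson value of 38.0%. HIST1H2BK had one in 19.4% against 31.5%, and 35.1% of its counts came from 10 cells. H2AFX had one in 34.7% against 40.3%, and HIST1H1E in 19.6% against 23.7%. H2AFV, with 56.1% against 56.9%, H2AFY, with 34.3% against 35.7%, and H3F3C, with 8.79% against 8.78%, lay close to the Poisson value.

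**Figure D2:**
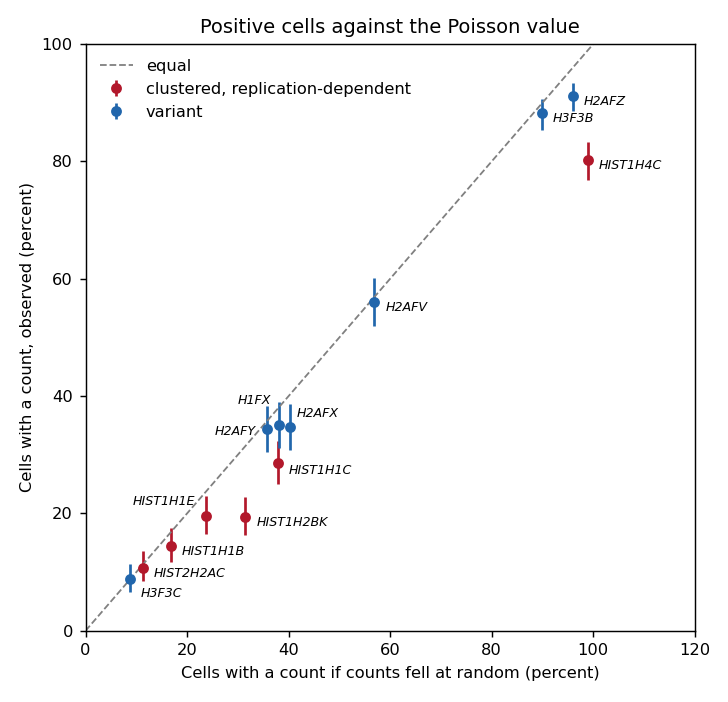
Share of the 603 cells with a count of each member with at least 50 counts (vertical axis, percent, exact 95% binomial intervals) against the share a Poisson distribution over cells of these depths would give (horizontal axis, percent). HIST1H4C at 80.3% against 98.9% and HIST1H2BK at 19.4% against 31.5% lie furthest below the dashed line of equality.

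At an equal depth of 1100 counts, a clustered count was present in 83.2% of 560 cells (79.9 to 86.2) and a variant count in 97.7% (96.1 to 98.8). Both classes were present in 457 cells, clustered only in 9, variant only in 90 and neither in 4. HIST1H4C was at 0 in 174 cells, at 1 in 123, at 2 to 4 in 112, at 5 to 9 in 101 and at 10 or more in 50. It therefore spanned cells with none and cells with up to 19 of 1100 counts. H2AFZ was at 0 in 106 cells, at 2 to 4 in 254 and at 10 or more in 1. The Fano factor (variance over mean) of HIST1H4C was 5.06, and 4 of the 2060 genes whose mean was 0.1 or more had a higher one. H2AFZ had a Fano factor of 1.59, HIST1H2BK of 1.81, and the median gene of 1.09.

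Pairs of histone genes varied together only weakly from cell to cell. Over 560 cells of equal depth, the mean Spearman rho was 0.058 within the clustered class (6 pairs of 4 genes, means of 0.1 or more), 0.044 within the variants (15 pairs of 6 genes) and 0.032 between the classes (24 pairs). Among the 2050 other genes the mean rho over pairs was -3.8e-05 (SD 0.044), and the means for histone pairs lay above it. The 95th percentile of rho over single pairs of those other genes was 0.073 and the 99th was 0.11. The points of each rho are cells of 1 pool and of equal depth. HIST1H4C and HIST1H1E had the highest rho of any pair of members, at 0.23. HIST1H4C had 0.17 with H2AFZ and 0.16 with H2AFX, above the 0.11 it had with HIST1H1C. HIST1H2BK ran at -0.09 with both HIST1H4C and HIST1H1E, so the clustered genes did not form 1 block. In sparse counts such weak values are descriptions only.

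Among the 10 of 2050 non-member genes whose counts ran most closely with the summed clustered counts were TK1 (thymidine kinase, rho 0.23), HMGB2 (a chromatin protein, 0.19), ASF1B (a chaperone of H3 and H4, 0.17), TUBA1B (tubulin, 0.17), PCNA (the replication clamp, 0.17), RAD21 (a cohesin subunit, 0.17), ID1 (0.16), ZWINT (a kinetochore protein, 0.15) and CDCA4 (0.15). The 95th percentile over all 2050 was 0.084. With the summed variant counts the values were 0.23 for TK1, 0.31 for HMGB2 and 0.37 for TUBA1B, and 0.071 for ASF1B and 0.076 for PCNA. The first 3 were thus as high or higher with the variants, and ASF1B and PCNA were lower.

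To relate the classes to the cell cycle, each cell was scored by its thinned count over 63 DNA replication genes and, separately, over 67 mitosis genes, neither of which includes a histone gene. The 187 cells with a replication score of at least 7 were compared with the 200 cells with a score of at most 3. The groups are ranges of a score, and 41 and 67 cells lay at their bounds. The clustered class stood at 5964 CPM in the high cells and 1884 CPM in the low cells, a log2 ratio of 1.66 (1.56 to 1.77). The variant class stood at 4760 and 3492 CPM, a log2 ratio of 0.45 (0.36 to 0.53). The interval of the clustered class thus lies above that of the variants, but both leave out the spread between cells. Over the thinned cells the Fano factor was 4.97 for the clustered and 1.68 for the variant class, so the intervals are too narrow, more so for the clustered class. Within barcode sets 1 and 2 the clustered ratios were 1.95 and 1.41 and the variant ratios 0.40 and 0.49.

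HIST1H4C stood at 4825 CPM in the cells with a high replication score and 1303 CPM in those with a low one, a log2 ratio of 1.89 (1.77 to 2.01). HIST1H1E stood at 195 and 44.6 CPM, a ratio of 2.13 (1.48 to 2.83). HIST1H1B, with 127 and 33.9 CPM, had a ratio of 1.91 (1.14 to 2.74), and HIST2H2AC, with 91.3 and 17.9 CPM, one of 2.35 (1.34 to 3.51). These 4 of the 6 clustered genes with at least 50 counts were at least 2-fold higher. Over the 4597 genes tested, 1.98% were at least 2-fold higher and 1.52% at least 2-fold lower, and the median log2 ratio was -0.01 against 1.90 for the 6 genes.

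Of the 2 other clustered genes, HIST1H1C had a ratio of 0.85 (0.45 to 1.25) and HIST1H2BK of -0.19 (-0.64 to 0.25). With each cell weighted equally the ratio of HIST1H1C was 0.45 (-0.18 to 1.08). HIST1H1C and HIST1H2BK both belong to a list of 9 clustered genes known to give polyadenylated transcripts as well. That list stood at 493 CPM with a high and 429 CPM with a low replication score, a ratio of 0.20 (-0.07 to 0.47). The other clustered genes without HIST1H4C stood at 646 and 152 CPM, a ratio of 2.09 (1.74 to 2.45). Clustered genes outside that list were thus further apart between the score groups even with HIST1H4C left out. The low counts were few: HIST1H2AJ had 26 counts with a high and 3 with a low score, HIST1H3C 18 and 3, and HIST1H2AM 16 and 3, with ratios of 3.37 (1.66 to 5.73), 2.83 (1.06 to 5.24) and 2.66 (0.86 to 5.09). The other clustered genes with 20 to 49 counts, both on the list, had intervals that include 0: HIST1H2BD had 13 and 25 counts, a ratio of -0.69 (-1.78 to 0.33), and HIST1H2BC 8 and 7, a ratio of 0.44 (-1.22 to 2.14).

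None of the 7 variants with at least 50 counts was 2-fold higher with the replication score, and their median ratio was 0.39. Only 1.98% of all 4597 genes tested were 2-fold higher, so this does not set the variants apart from other genes. H2AFZ stood at 2234 CPM with a high and 1362 CPM with a low score, a ratio of 0.71 (0.58 to 0.85). H2AFX had a ratio of 0.46 (0.07 to 0.85) and H3F3B of 0.24 (0.08 to 0.40). With each cell weighted equally these were 0.43 (-0.21 to 1.09) and 0.20 (-0.06 to 0.46), and both intervals include 0. The ratio of H3F3B was 0.34 and 0.13 within barcode sets 1 and 2 under the same scores, and -0.015 when set 2 was thinned and scored anew. H2AFY stood at 181 and 180 CPM, a ratio of 0.00 (-0.43 to 0.43).

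The mitosis score gave another order. The 172 cells with a score of at least 8 were compared with the 187 cells with a score of at most 2. The clustered class stood at 3327 CPM in the high and 1892 CPM in the low cells, a log2 ratio of 0.81 (0.69 to 0.93). The variant class stood at 5067 and 2948 CPM, a ratio of 0.78 (0.69 to 0.88). The classes thus did not differ beyond counting here. The clustered ratio was 1.06 and 0.54 within the barcode sets, 1.03 without the deepest cell, and 0.24 without HIST1H4C.

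H2AFX was furthest apart of the members, at 364 CPM with a high and 86.5 CPM with a low mitosis score, a log2 ratio of 2.07 (1.57 to 2.61). H1FX stood at 294 and 126 CPM, a ratio of 1.22 (0.77 to 1.68). With each cell weighted equally, as thinned counts, H2AFX had a ratio of 1.94 (1.14 to 2.81) and H1FX one of 0.69 (0.025 to 1.37), below 2-fold. With another random thinning as well, these were 1.48 and 1.13. H2AFZ had a ratio of 0.95 (0.80 to 1.11) and H3F3B one of 0.53 (0.36 to 0.70). Of the variants, 2 of 7 were at least 2-fold higher by summed counts, though H1FX fell below that in 1 of the equally weighted settings, against 3.76% of 4596 genes tested, and 1.65% of these were at least 2-fold lower. Of the clustered genes, HIST1H4C with 1.01 (0.87 to 1.15) and HIST1H1B with 1.51 (0.55 to 2.58) were at least 2-fold higher. HIST1H1E had a ratio of 0.70 (-0.02 to 1.44), HIST2H2AC of -0.01 (-1.10 to 1.10) and HIST1H2BK of -0.12 (-0.63 to 0.39). The median ratio was 0.59 over the 6 clustered genes, 0.70 over the 7 variants and 0.02 over all genes. No variant or clustered gene with at least 50 counts was 2-fold lower with either score. Below that limit, HIST1H2BD had 8 counts with a high and 19 with a low mitosis score, a ratio of -1.43 (-2.84 to -0.18), and H2AFJ 8 and 18, a ratio of -1.36 (-2.77 to -0.08). With equal weights both intervals included 0.

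**Figure D3:**
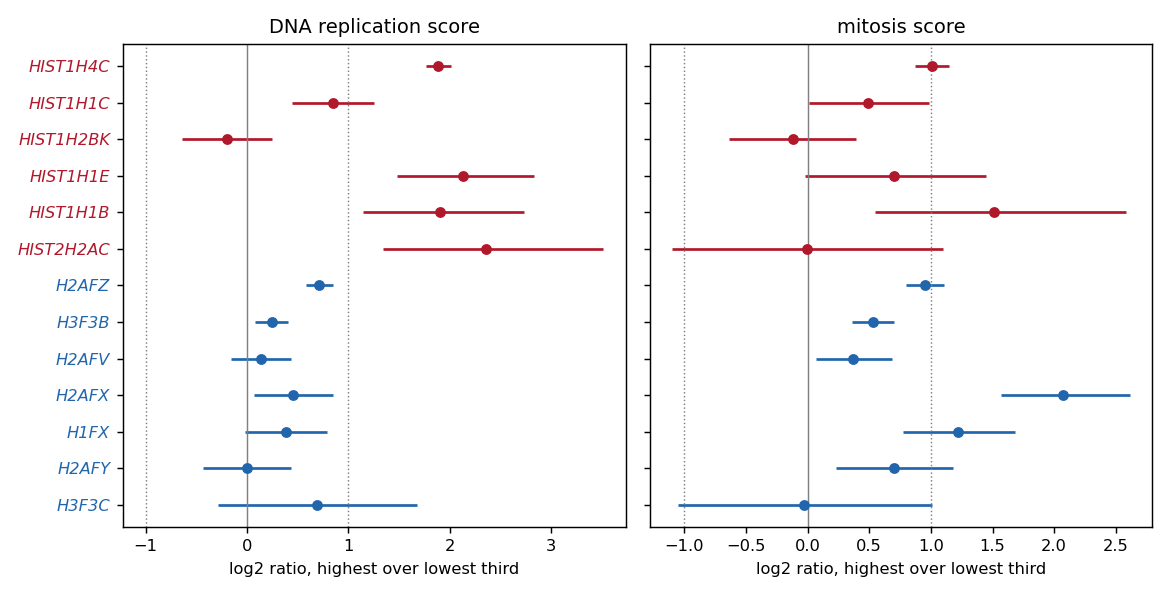
log2 ratio of CPM between the cells with the highest and lowest scores, for each member with at least 50 counts, with exact 95% conditional binomial intervals; dotted lines mark 2-fold. With the replication score 4 of 6 clustered genes (red) and none of 7 variants (blue) reach 2-fold, against 1.98% of all genes tested. With the mitosis score H2AFX at 2.07 lies furthest right.

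The comparison of extremes hid the course between them. In 8 ranges of the mitosis score (0, 1 to 2, 3 to 4, 5 to 6, 7 to 8, 9 to 11, 12 to 15, and 16 to 29), the mean clustered count per cell of 1100 was 1.13, 2.54, 5.38, 6.60, 6.29, 5.66, 2.55 and 1.22. The clustered class was thus highest at middle scores and as low at the top as at the bottom. The variant class stood at 2.70, 3.50, 4.84, 5.50, 5.73, 6.23, 5.98 and 5.29 in the same ranges. It thus stayed near its highest level in the cells with the highest mitosis scores. The ranges held 54, 133, 86, 84, 59, 56, 47 and 41 cells. In both barcode sets the clustered mean of the last range, 1.04 and 1.44, was below that of the range 7 to 8, 6.12 and 6.48.

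Along the replication score no such decline was seen. Over the ranges 0, 1, 2, 3, 4, 5, 6 to 7, and 8 to 18, the clustered mean was 1.19, 1.63, 1.80, 3.06, 3.58, 3.77, 4.34 and 6.86, each above the one before it. The intervals of neighbouring ranges overlap from 0 to 2 and again from 3 to 7. The variant mean was 1.81 at a score of 0, between 3.85 and 4.71 from 1 to 5, 5.85 at 6 to 7 and 5.38 in the last range. The clustered mean passed the variant mean only in the last range.

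**Figure D4:**
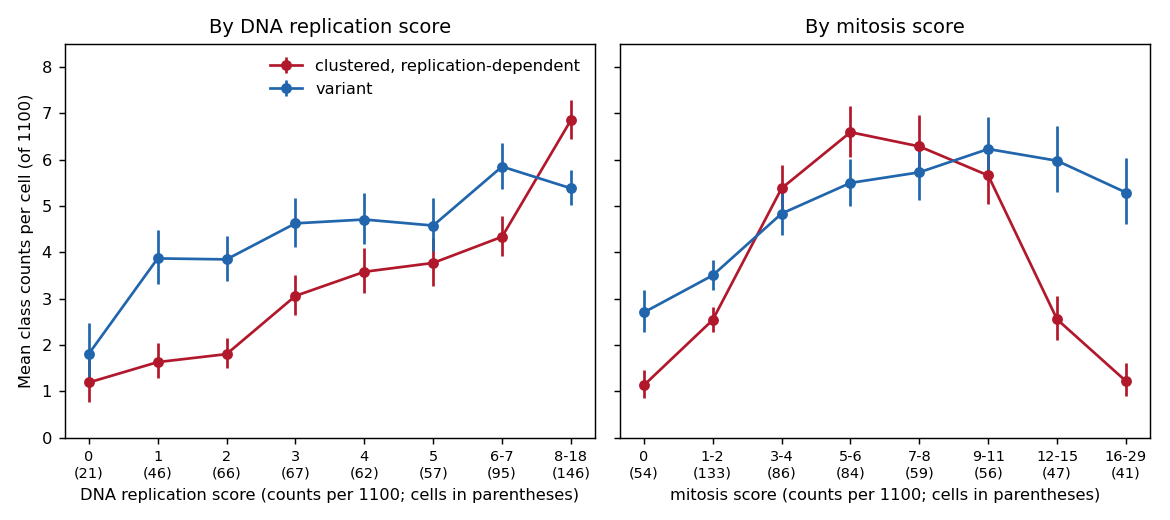
Mean counts per cell of the clustered (red) and variant (blue) classes, in cells thinned to 1100 counts, by range of the replication score (left) and of the mitosis score (right), with the number of cells in parentheses and exact 95% Poisson intervals as bars. Along the mitosis score the clustered class reaches 6.60 and returns to 1.22, while the variants remain at 5.29 in the last range.

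The 143 cells with mitosis scores of 5 to 8 were then set against the 88 cells with scores of 12 or more, bounds that were chosen after these means were seen. The clustered class stood at 5856 CPM in the middle and 1919 CPM at the top, a log2 ratio of 1.61 (1.47 to 1.75). Within the barcode sets, under the same scores, it was 1.28 and 1.93, and over the other settings tried it lay between 1.03 and 1.74. The variant class stood at 4838 and 5311 CPM, a ratio of -0.13 (-0.24 to -0.03), and it was 0.028 with another random thinning and cells weighted equally. The mean replication score was 6.76 in the middle cells and 5.14 in the top cells, so the middle cells also carried more replication transcripts.

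HIST1H4C stood at 4825 CPM at middle scores and 1417 CPM at the top, a ratio of 1.77 (1.60 to 1.94). HIST1H1B, with 55 and 7 counts, had a ratio of 2.40 (1.26 to 3.78), HIST1H1E, with 70 and 16, one of 1.56 (0.76 to 2.44), and HIST2H2AC, with 31 and 7, one of 1.57 (0.36 to 3.00). These 4 of 6 clustered genes, and none of 7 variants, were at least 2-fold higher at middle scores. Over 4596 genes, 3.29% were at least 2-fold higher and 3.52% at least 2-fold lower in that comparison. HIST1H1C had a ratio of 0.97 (0.39 to 1.58) and HIST1H2BK of 0.12 (-0.57 to 0.84). With each cell weighted equally, as thinned counts, HIST1H4C had a ratio of 2.02 (1.74 to 2.32) and HIST1H1C one of 0.14 (-0.71 to 1.03). The equally weighted interval of HIST1H1C holds both 0 and its summed value of 0.97, so the 2 values did not differ beyond counting error. Within barcode sets 1 and 2, under the same scores, HIST1H1C had 0.03 and 1.47, for which no intervals were computed. HIST1H1C and HIST1H2BK, which have known polyadenylated forms, were also below 2-fold in the replication comparison.

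H2AFX lay on the other side, with 236 CPM at middle and 442 CPM at top scores, a ratio of -0.91 (-1.33 to -0.49). With each cell weighted equally its ratio was -0.37 (-1.09 to 0.36), which does not exceed counting error. H1FX had a ratio of -0.61 (-1.06 to -0.15), or -0.29 (-1.05 to 0.49) with equal weights, H3F3B of -0.21 (-0.40 to -0.01) and H2AFZ of 0.05 (-0.10 to 0.21). The median ratio was 1.57 over the 6 clustered genes, -0.28 over the 7 variants and 0.00 over all genes. Of 41 replication genes with at least 50 counts, 8 were at least 2-fold higher at middle scores and their median was 0.38.

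**Figure D5:**
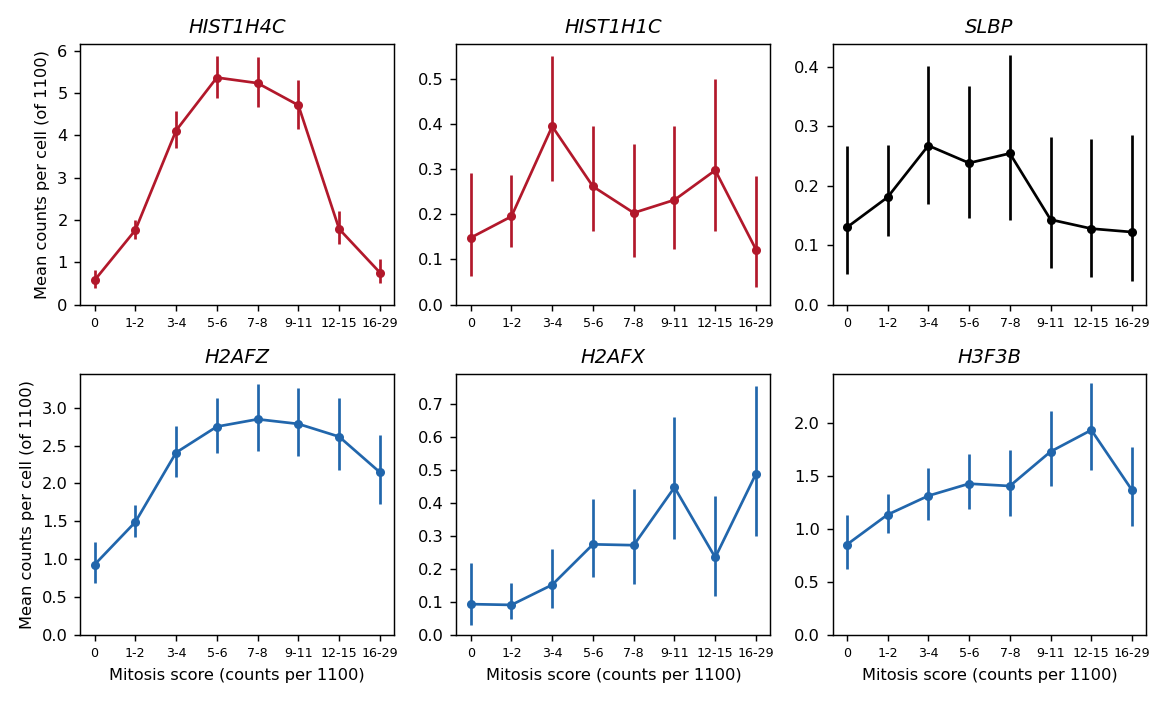
Mean counts per cell of 1100 for HIST1H4C and HIST1H1C (red), SLBP (black) and the variants H2AFZ, H2AFX and H3F3B (blue) by range of the mitosis score, with exact 95% Poisson intervals as bars and a separate vertical scale for each gene. HIST1H4C reaches 5.37 at scores of 5 to 6 and stands at 0.756 in the last range, where H2AFX is at 0.488.

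Cells were also split at the median of each score, 5 for both. The clustered class stood at 5261 CPM in 177 cells high in both scores, at 4514 in 121 cells high in replication only, at 2804 in 110 cells high in mitosis only and at 1742 in 152 cells low in both. The variant class stood at 5150, 3916, 4738 and 2761 CPM in the same order. The classes thus differed in which single score went with the higher level. Among cells low in mitosis, high over low replication gave 1.37 (1.24 to 1.51) for the clustered class and 0.50 (0.38 to 0.63) for the variants. Among cells low in replication, high over low mitosis gave 0.69 (0.54 to 0.83) and 0.78 (0.67 to 0.89).

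HIST1H4C carried the second of these for its class. Among cells low in replication it stood at 2308 CPM with high and 1082 CPM with low mitosis scores, a log2 ratio of 1.09 (0.92 to 1.27). The clustered class without HIST1H4C stood at 496 and 660 CPM there, a ratio of -0.41 (-0.70 to -0.13), so its direction turned. Much of that lay in HIST1H2BK, with 38 and 83 counts, a ratio of -0.93 (-1.53 to -0.36). HIST1H1C had -0.12, HIST2H2AC -0.32, HIST1H1E 0.27 and HIST1H1B 1.19, each with an interval that includes 0. H2AFX had a ratio of 2.14 (1.54 to 2.78) among cells low in replication and 0.95 (0.47 to 1.45) among cells high in it.

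Genes that make, process and carry histones were read from 2 lists. Of 14 genes for histone mRNA transcription and processing, 7 had at least 50 counts. SLBP, the stem-loop binding protein gene, stood at 200 CPM with a high and 85.7 CPM with a low replication score. The ratio was 1.22 (0.70 to 1.75). SLBP was the 1 gene of the 7 at least 2-fold higher, against 1.98% of all 4597 genes tested. It stood at 70.2 and 140 CPM with a high and low mitosis score, a ratio of -0.99 (-1.63 to -0.38). With each cell weighted equally the mitosis ratio was -0.37 (-1.23 to 0.46), and 12.2% and 12.8% of the thinned cells had a count, so a difference did not exceed counting error there. SLBP stood at 182 and 59.7 CPM at middle and top mitosis scores, a ratio of 1.61 (0.79 to 2.52). With each cell weighted equally this ratio was 0.97 (-0.04 to 2.1). LSM10, a subunit of the particle that cuts histone pre-mRNA, had ratios of -0.14 (-0.63 to 0.34) with replication and -0.02 (-0.52 to 0.47) with mitosis. NPAT, which activates clustered histone genes, had 6 counts.

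Of 30 histone chaperone and deposition genes, 3 of the 21 tested were at least 2-fold higher with the replication score. Over all 4597 genes tested the share was 1.98%. ASF1B had a ratio of 1.59 (0.98 to 2.23), and CHAF1A and CHAF1B, subunits of the complex that deposits histones behind the replication fork, had 1.29 (0.69 to 1.92) and 1.91 (1.13 to 2.77), the latter 1.18 (-0.04 to 2.50) with equal weights. NASP, a chaperone of H3 and H4, had 0.89 (0.58 to 1.20). HIRA and DAXX, which act in deposition outside replication, had 0.13 (-0.73 to 0.99) and 0.18 (-0.27 to 0.63). With the mitosis score, 4 of 22 were at least 2-fold higher, against 3.76% of all 4596 genes tested. They included HJURP at 2.77 (2.09 to 3.52), which deposits the centromeric histone, MIS18A at 1.21 (0.34 to 2.14) and ASF1B at 1.19 (0.51 to 1.92). The fourth was CENPA, the centromeric H3 gene, with 44 counts against 1, a ratio of 5.27 (2.72 to 10.61). ASF1B was thus at least 2-fold higher with both scores, while CHAF1A and CHAF1B had mitosis ratios of -0.70 (-1.45 to 0.03) and -0.36 (-1.21 to 0.49).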

How the data were processed

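The authors deposited raw counts, 1 whole number for each gene in each cell. The submitters' processing notes name Bowtie2 2.1.0 and the build hg19. The counting tool, annotation, cell filter and kind of count (molecule or read) were not given in the sources used here. A row named unknown (2 counts) was left out. Doublets were not called, since wells received single sorted cells per the labels. CPM (summed counts per 1000000) with exact Poisson intervals, shares with Clopper-Pearson intervals and log2 ratios of CPM with conditional binomial intervals, all at 95%, were computed here with Python 3.11.15, numpy 2.4.6 and scipy 1.17.1. A gene at 0 was given a limit of 3 counts. Thinning drew 1100 counts from each cell without replacement, and 43 cells were too shallow for it. Score groups were cut where each held nearest to 1 in 3 cells. Counts are 3' tags and were not divided by length. The single pool allows no test. The scripts were tested on simulated data that held counting error but no further spread between cells. By rule, members with at least 20 counts were named, those with at least 50 with values, and the 10 genes nearest to the clustered sum were named, except 1 that is not reported here. The printed sequences were chosen after values were seen. Members and lists were chosen with earlier results of these data known. Alternatives were the barcode sets, the deepest cell, the thinning, the score groups, the count minimum and the class borders.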

Additional observations from a re-analysis of the deposited data

How the results depend on the processing

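Between high and low cells of either score, both class ratios stayed above 0 under every setting tried, but their sizes moved. Values below follow the order of the report, are log2 ratios unless a unit is given, and were outside the interval of the reported value. The settings without HIST1H4C, without H2AFZ and with cells weighted equally were chosen after seeing the data, as was the comparison of middle with top mitosis scores. The score bounds of that comparison were kept at every thinning depth. Causes were not tested.

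Each barcode set alone was also thinned and scored anew, so these values differ from those within the sets under the same scores. In barcode set 1 alone, the clustered class had 1.95 with replication, 1.19 with mitosis and 1.28 for middle over top, the variants had 0.91 for mitosis among cells low in replication, and 110 genes were 2-fold higher with mitosis (173 in all cells). In barcode set 2 alone, 95.8% of cells had a variant count, the clustered class had 0.60 with mitosis, 0.97 for replication among cells low in mitosis, 0.35 for mitosis among cells low in replication and 1.32 for middle over top, and the variants had 0.79, 0.89 and -0.28 for the last 3. There, 46 genes were 2-fold higher with replication (91 in all cells) and 97 with mitosis, and H3F3B turned to -0.015 with replication. Without the deepest cell the clustered class had 1.03 with mitosis.

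Thinned to 1000, the clustered class had 0.57 with mitosis, 1.58 and 0.86 in the crossed groups (replication among cells low in mitosis, then mitosis among cells low in replication) and 1.37 for middle over top, and the variants 0.65 and 0.99 in the crossed groups. Thinned to 1500, 86.3% of cells had a clustered count, 183 genes were 2-fold higher with replication, the clustered class had 1.53 in the first crossed group and 1.03 for middle over top, and the variants had 0.91 with mitosis and 0.92 in the second crossed group. With another random thinning, the clustered class had 1.51 with replication, 0.57 with mitosis, 1.87 and 1.14 crossed and 1.26 for middle over top, the variants 0.63 and 0.98 crossed, and HIST1H1C turned to -0.086 with mitosis. Weighting cells equally put the variants at -0.017 for middle over top. With another thinning as well, the clustered class had 0.95 with mitosis, 1.76 and 1.25 crossed and 1.31 for middle over top, and the variants 0.63 and 0.93 crossed and 0.028 for middle over top, which turned direction.

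Split at the median, the clustered class had 1.15 with replication and 0.53 with mitosis, the variants 0.34 and 0.61, and 42 and 88 genes were 2-fold higher. With genes of at least 20 counts, 315 and 490 were.

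With the genes of known polyadenylated forms moved to the variants, clustered over variant was -0.52, 74.1% of cells had a clustered count, rho within the clustered class was 0.23 (1 pair), the clustered class had 1.91 with replication, 0.96 with mitosis, and 1.70 and 1.00 crossed, and the variants 0.63 in the second crossed group. Without joint rows clustered over variant was -0.14. Without HIST1H4C it was -2.39, 50.9% of cells had a clustered count, and the class had 0.97 with replication, 0.24 with mitosis, 0.50 and -0.41 crossed (the second turned) and 1.04 for middle over top. Without H2AFZ clustered over variant turned to 0.64, 88.9% of cells had a variant count, and the variants had 0.25 with replication, 0.66 with mitosis, 0.30 in the first crossed group and -0.29 for middle over top.

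No paired analysis was possible because the cells carry no sample or replicate number. Depth limits the low members, 21 clustered and 4 variant genes of which were at 0, and 43 shallow cells entered no value per cell.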
